A study of Mus musculus with 22 samples.

Results

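The 38 genes described here carry glucose into the cell, break it down to pyruvate and lactate, or set the pace of that route. They were taken from a given list of symbols and comprise 3 glucose transporters, 3 hexokinases, 6 genes of the upper steps, 4 regulators of fructose 2,6-bisphosphate, 1 fructose bisphosphatase, 8 genes of the lower steps, 4 genes of lactate, 6 genes of the pyruvate dehydrogenase switch and 3 genes of the HIF axis. A probe of the array belonged to a listed gene when its RefSeq accession maps to that symbol. All 38 genes had a probe that passed the filter on dim probes, so that all 38 are among the 22384 genes tested, and 12 of them had more than 1 such probe (58 probes in all).

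The RNA came from cultures of bone marrow-derived macrophages (BMDM), cells that arise from mouse marrow under the growth factor M-CSF. The mice were wild-type (wt), deficient in the protein kinase MK2 (MK2-/-) or deficient in both MK2 and its relative MK3 (MK2/3-/-, the double knockout). The cells were left for 360 min in culture medium or in medium with 100 ng/ml lipopolysaccharide (LPS), a bacterial cell wall component that macrophages sense as a sign of infection. There were 4 medium-treated and 3 LPS-treated arrays of wt BMDM, 4 and 4 of MK2-/- BMDM, and 3 and 4 of MK2/3-/- BMDM, each hybridised with the Cy3-labelled RNA of 1 sample. All animals were labelled as male mice of the strain C57BL/6, aged 10 to 14 weeks, and the methods describe the repeats as independent experiments. Values are log2 signals, on which a step of 1 stands for a 2-fold change, after quantile normalisation over the 22 arrays. A gene is called higher or lower when its Benjamini-Hochberg adjusted p from limma, over all 22384 genes, is below 0.05.

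The arrays had a median processed signal of 32.7 to 107.8, and 61.1% to 82.7% of probes were well above background. Probes of Mapkapk2, the gene of MK2, differed from wt under LPS by -3.29 in MK2-/- BMDM and by -3.87 in MK2/3-/- BMDM, and Mapkapk3, the gene of MK3, by 0.23 and -4.11. All 7 tested macrophage markers were well above background on every array. Markers of other cells were also detected. Of 4 dendritic markers 2 to 4 were well above background on an array, and their mean log2 signal lay between 5.74 and 6.56 in medium-treated and 7.89 and 8.25 in LPS-treated wt BMDM, between 5.51 and 6.34 and between 7.94 and 8.48 in MK2-/- BMDM, and between 5.66 and 6.42 and between 9.01 and 9.77 in MK2/3-/- BMDM. Stromal markers had array means of 6.78 to 11.67 with 3 or 4 of 4 above background, and under LPS their median difference from wt was -1.83 in MK2-/- and -1.73 in MK2/3-/- BMDM, with none of the 4 called. Of 6 neutrophil and precursor markers, 4 to 6 were above background on an array. Under LPS, S100a8 was called lower in MK2/3-/- than in wt BMDM (-3.11 ± 0.80), while 5 were not called and the list median was 0.18. Elane was called higher in MK2/3-/- than in MK2-/- BMDM (0.84 ± 0.25), while 5 were not called and the list median was -0.17. The mast cell marker Cpa3 was above background on no MK2-/- array, on 3 of 7 wt arrays and on all 7 MK2/3-/- arrays, and 1 T cell and 1 B cell marker of 4 each were called higher in LPS-treated MK2/3-/- BMDM than in wt. The part of these markers in the differences below was not tested, and in RNA from whole cultures fewer cells of a type and less RNA per cell cannot be told apart. Of the arrays, 3 stood apart from their group. Y-linked genes were not above background on replicate 3 of medium-treated and replicate 3 of LPS-treated MK2-/- BMDM, against the label of male animals, and the latter array also had 2927 spots marked as outliers, compared with 115 to 261 on the others. On replicate 4 of medium-treated wt BMDM, LPS-inducible genes were raised, with Il6 at 13.36 where no other medium-treated array exceeded 10.02. Counts are therefore also given without these 3 arrays, an alternative chosen after the data had been seen. Every genotype lay on a slide of its own, so that slide and genotype cannot be told apart in a direct comparison of genotypes, whereas both treatments of a genotype shared a slide.

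Glycolysis takes up glucose through GLUT transporters, traps it by phosphorylation with a hexokinase, and commits it at phosphofructokinase, which fructose 2,6-bisphosphate activates. The lower steps yield ATP, NADH and pyruvate, which lactate dehydrogenase turns into lactate for export or which pyruvate dehydrogenase passes on to the citrate cycle unless a pyruvate dehydrogenase kinase shuts it off. Macrophages activated by LPS are known for a shift towards glycolysis, and the transcription factor HIF-1, whose alpha subunit is marked for destruction by prolyl hydroxylases, drives many genes of this route.

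The first question was which of these genes respond to LPS, and whether they respond in each genotype. In wt BMDM 18 of the 38 genes (47.4%) passed the test, 8 with a rise and 10 with a fall, where over all genes 42.1% were called (18.6% higher and 23.5% lower). In MK2-/- BMDM 21 were called (55.3%), 10 higher and 11 lower, against 44.6% of all genes (17.5% higher and 27.1% lower). In MK2/3-/- BMDM 20 were called (52.6%), 8 higher and 12 lower, against 48.2% of all genes (20.2% higher and 27.9% lower). These shares lay somewhat above those of all genes, a difference that was not tested, and the median log2 difference of the 38 genes was -0.20, -0.14 and -0.24 in the 3 genotypes, compared with -0.04, -0.01 and 0.01 over all genes. In all 3 genotypes 15 genes were called with the same sign, 7 of them higher (Slc2a1, Slc2a6, Hk3, Pfkp, Pfkfb3, Pdk3 and Hif1a) and 8 lower (Slc2a3, Gpi1, Pfkm, Pfkfb2, Pfkfb4, Ldhb, Pdk2 and Egln3). No gene was called in opposite directions, 9 were called in 1 or 2 genotypes and 14 in none. Calls shared by the genotypes were not counted over all genes, so these counts do not set the 38 genes apart.

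Without the 3 arrays that stood apart, 7 genes were higher and 9 lower in wt, 10 and 11 in MK2-/-, and 8 and 12 in MK2/3-/- BMDM. Scaling each array to its 75th percentile in place of quantile normalisation moved the median of all genes from -0.04 to 0.30 in wt, from -0.01 to 0.28 in MK2-/- and from 0.01 to 0.29 in MK2/3-/- BMDM. The 38 genes then split into 13 higher and 8 lower, 16 and 8, and 13 and 8. In wt the calls gained in this way were Hk1 (1.15), Pfkl (1.25), Gapdh, Pgk1 and Ldha, all higher, and those lost were Gpi1 and Pgam1, as given below for each gene. The signs of the 15 genes shared by the genotypes stayed under this scaling, although Gpi1 was no longer called. The shares of all genes called in these settings are not given here, so that the changed counts are no result about the 38 genes alone.

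**Figure D1:**
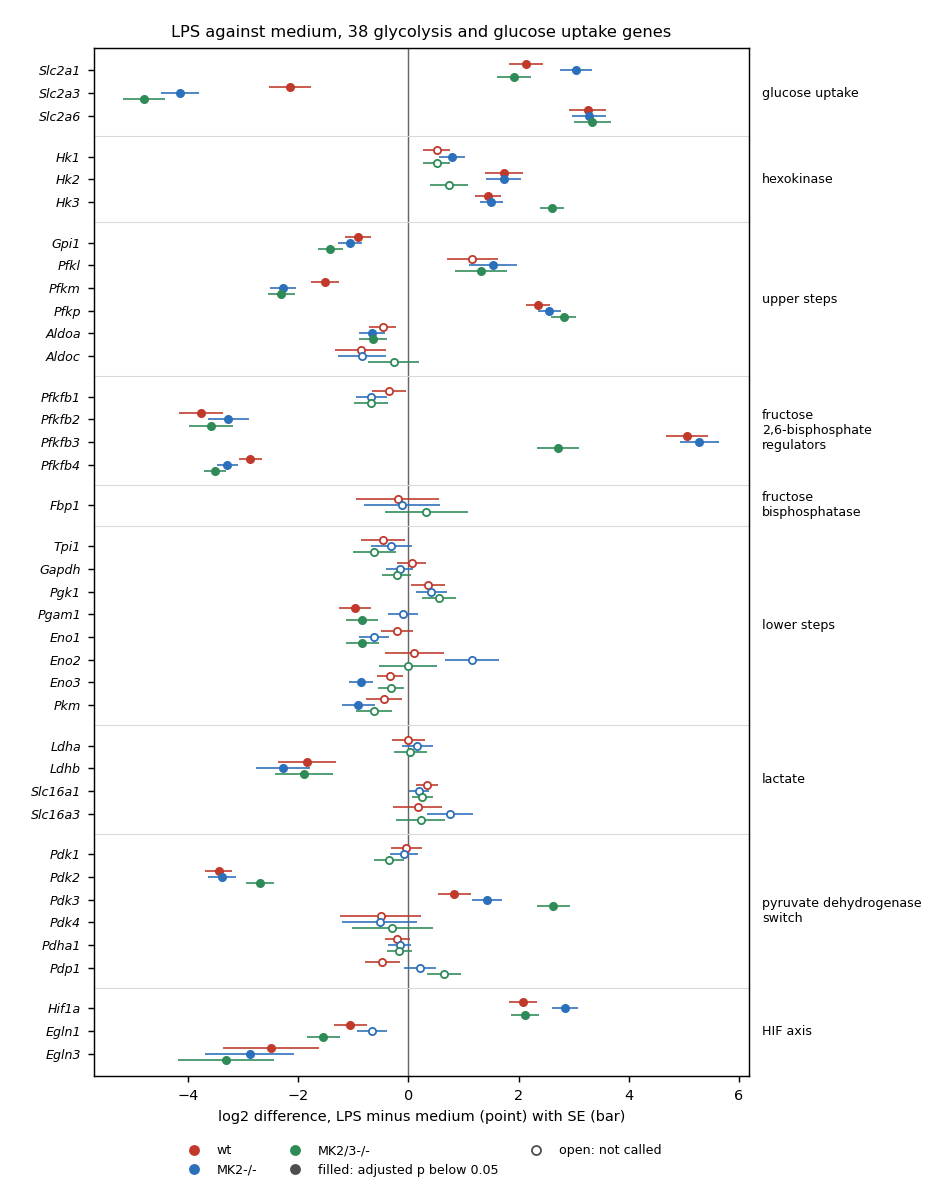
Log2 difference between LPS and medium (horizontal axis, points) with its standard error (bars) for each of the 38 genes, ordered by role, in wt (red), MK2-/- (blue) and MK2/3-/- BMDM (green). Filled points were called at an adjusted p below 0.05. Pfkfb3, Slc2a6, Pfkp, Slc2a1 and Hif1a lie to the right in all 3 genotypes, Pfkfb2, Pfkfb4, Pdk2 and Slc2a3 to the left, and most genes of the lower steps near 0.

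Genes that move together after LPS can be looked at for a shared word in their promoters. HIF-1 binds the hypoxia response core ACGTG, which was searched on both strands (so also as CACGT) in the 250 bases before each RefSeq start, in promoter sequences of RefSeq on the build GRCm38.p6. Of the 38 genes 36 had such a sequence, and 18 of these (50%) held the core, compared with 18.5% of 27025 genes with a promoter (16.6% of 32851 promoter sequences, as some genes have several). It was found in 6 of 8 genes higher after LPS in wt (Slc2a1, Hk2, Hk3, Pfkfb3, Pdk3 and Hif1a), in 6 of 9 genes that were lower (Pfkm, Pfkfb2, Pgam1, Pdk2, Egln1 and Egln3) and in 6 of 19 that were not called. These shares are a description of letters, and a match is not a site of binding. The promoters shown all hold the core and are those of Pfkfb3 (both starts), Slc2a1 and Hk2, which rose with LPS in wt BMDM, and of Egln3, which fell. Those of Slc2a6 and Pfkp, which also rose in wt BMDM, were searched, held no core and are not shown. Capitals mark the core. In the second start of Pfkfb3 the palindrome CACGTG holds it once on each strand.
Pfkfb3, first start, chr2:11553930-11554179, minus strand: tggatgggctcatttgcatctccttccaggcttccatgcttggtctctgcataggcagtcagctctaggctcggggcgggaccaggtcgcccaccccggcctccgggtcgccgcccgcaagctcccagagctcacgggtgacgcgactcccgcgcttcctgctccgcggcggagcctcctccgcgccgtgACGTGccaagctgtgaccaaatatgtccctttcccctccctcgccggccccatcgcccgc
Pfkfb3, second start, chr2:11502091-11502340, minus strand: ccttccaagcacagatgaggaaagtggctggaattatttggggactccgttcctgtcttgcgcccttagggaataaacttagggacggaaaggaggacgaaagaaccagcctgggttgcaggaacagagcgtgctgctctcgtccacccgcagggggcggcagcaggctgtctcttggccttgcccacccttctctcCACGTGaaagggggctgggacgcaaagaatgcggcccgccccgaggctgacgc
Slc2a1, chr4:119108495-119108744, plus strand: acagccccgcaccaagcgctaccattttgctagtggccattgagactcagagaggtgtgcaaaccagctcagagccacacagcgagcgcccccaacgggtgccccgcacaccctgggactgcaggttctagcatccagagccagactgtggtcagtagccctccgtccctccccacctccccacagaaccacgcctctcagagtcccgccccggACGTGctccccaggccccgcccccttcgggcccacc
Hk2, chr6:82774455-82774704, minus strand: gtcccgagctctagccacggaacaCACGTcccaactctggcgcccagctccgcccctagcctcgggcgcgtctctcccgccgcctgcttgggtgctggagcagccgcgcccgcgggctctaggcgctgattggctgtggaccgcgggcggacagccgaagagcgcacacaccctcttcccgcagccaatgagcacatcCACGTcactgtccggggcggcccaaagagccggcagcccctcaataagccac
Egln3, chr12:54203875-54204124, minus strand: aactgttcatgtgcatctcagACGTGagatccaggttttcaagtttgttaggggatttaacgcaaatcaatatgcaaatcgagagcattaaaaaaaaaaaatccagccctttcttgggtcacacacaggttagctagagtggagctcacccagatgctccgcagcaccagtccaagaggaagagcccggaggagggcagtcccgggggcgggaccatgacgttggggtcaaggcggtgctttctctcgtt
Counted back from the start, the core began at base 60 in the first promoter of Pfkfb3, at bases 53 and 52 in the second, at base 36 in Slc2a1, at bases 226 and 52 in Hk2 and at base 229 in Egln3.

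Among the glucose transporters, Slc2a1 and Slc2a6 rose after LPS in all 3 genotypes and Slc2a3 fell in all 3. Slc2a1 (NM_011400) encodes GLUT1, a widely expressed glucose transporter. Slc2a1 gave log2 signals of 12.50, 11.39, 11.72 and 11.99 on the medium-treated and 14.54, 14.20 and 13.39 on the LPS-treated wt arrays. Slc2a1 in MK2-/- BMDM stood at 11.23, 11.16, 11.46 and 12.03 in medium and at 14.71, 14.96, 14.44 and 13.96 after LPS. For MK2/3-/- BMDM the Slc2a1 signals were 11.90, 11.60 and 12.16 in medium and 14.01, 13.90, 13.77 and 13.54 after LPS. Every LPS-treated array lay above every medium-treated array of its genotype. The log2 difference of Slc2a1 was 2.14 ± 0.31 (SE, here and below) in wt, a 4.42-fold rise (adjusted p = 1.57e-05), 3.04 ± 0.28 in MK2-/- (adjusted p = 4.32e-08) and 1.92 ± 0.31 in the double knockout (adjusted p = 3.56e-05). Slc2a6 (NM_172659) encodes GLUT6, a hexose transporter of intracellular membranes. Slc2a6 was at 13.89, 13.79, 13.42 and 14.49 on the medium-treated wt arrays and at 17.35, 17.21 and 16.91 on the LPS-treated ones. The MK2-/- arrays gave 15.02, 14.19, 13.48 and 13.24 for Slc2a6 in medium and 17.36, 17.47, 17.02 and 17.19 after LPS. On the MK2/3-/- arrays Slc2a6 reached 14.55, 13.79 and 13.56 in medium and 17.46, 17.42, 17.23 and 17.12 after LPS. All LPS arrays again lay above all medium arrays, and the rises in Slc2a6 were 3.25 ± 0.34, 3.28 ± 0.31 and 3.34 ± 0.34 in wt, MK2-/- and MK2/3-/- BMDM (adjusted p = 3.63e-07, 6.26e-08 and 1.44e-07), which is 9.55-fold, 9.71-fold and 10.1-fold. The rise in Slc2a6 differed from that in wt by 0.02 in MK2-/- (95% interval -0.95 to 1.00) and by 0.08 in MK2/3-/- BMDM (95% interval -0.93 to 1.09).

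Slc2a3 (NM_011401) encodes GLUT3, a transporter of high glucose affinity. Slc2a3 gave 8.98, 9.14, 9.16 and 9.54 on the medium-treated and 6.33, 7.01 and 7.83 on the LPS-treated wt arrays. The Slc2a3 signals in MK2-/- BMDM were 9.19, 8.80, 9.23 and 9.07 in medium and 5.09, 5.30, 4.29 and 5.04 after LPS. The MK2/3-/- arrays showed Slc2a3 at 8.74, 8.62 and 9.43 in medium and at 3.02, 4.47, 4.41 and 4.67 after LPS, where 2 of the 4 arrays were well above background. The medium-treated arrays of the 3 genotypes overlapped, and the LPS-treated arrays of both knockouts lay below all LPS-treated wt arrays. Slc2a3 changed by -2.14 ± 0.37 in wt, 4.42-fold down (adjusted p = 1.30e-04), by -4.14 ± 0.35 in MK2-/- (adjusted p = 1.04e-08) and by -4.79 ± 0.37 in the double knockout (adjusted p = 4.89e-09), the last of these with LPS-treated arrays at or near background. With normexp background correction, which models the background of each array and adds an offset of 50 to the signals, the changes of Slc2a3 were -1.66, -2.58 and -2.64.

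Hexokinases phosphorylate glucose, which keeps it in the cell. Hk2 and Hk3 rose after LPS in wt and MK2-/- BMDM, and Hk3 also rose in MK2/3-/- BMDM. Hk2 (NM_013820) encodes the inducible hexokinase of muscle and of many activated cells. Hk2 stood at 10.74, 11.49, 11.50 and 11.52 on the medium-treated and at 13.09, 13.11 and 12.93 on the LPS-treated wt arrays. Hk2 in MK2-/- BMDM gave 10.73, 10.39, 11.46 and 12.23 in medium and 12.89, 13.03, 12.76 and 13.06 after LPS. The Hk2 signals in MK2/3-/- BMDM were 11.13, 11.99 and 11.60 in medium and 12.04, 12.18, 12.13 and 12.93 after LPS. Medium and LPS did not overlap in any genotype, but 3 of the 4 LPS-treated MK2/3-/- arrays lay close above the highest medium-treated array of that genotype. Hk2 was 1.73 ± 0.34 higher in wt (3.32-fold, adjusted p = 4.60e-04) and, in MK2-/- BMDM, 1.74 ± 0.32 higher (adjusted p = 1.55e-04), and the difference in MK2/3-/- BMDM was 0.74 ± 0.34 and not called (adjusted p = 0.0838, 95% interval 0.02 to 1.46).

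Hk3 (NM_001033245) encodes a hexokinase that is abundant in myeloid cells. Hk3 gave 11.88, 12.32 and 12.16 on medium-treated wt arrays, where the marked spot of replicate 3 left it out of the fit, and 12.99, 13.80 and 13.91 on LPS-treated wt arrays. For MK2-/- BMDM the Hk3 values were 12.43, 13.00, 12.63 and 12.43 in medium and 14.19, 14.02, 13.83 and 14.49 after LPS. In MK2/3-/- BMDM, Hk3 was at 12.33, 12.25 and 12.06 in medium and 14.95, 14.92, 14.74 and 14.69 after LPS. The 4 LPS-treated MK2/3-/- arrays were the highest of all, and no LPS-treated array of any genotype overlapped the medium-treated arrays of that genotype. The rise of Hk3 was 1.45 ± 0.24 in wt (2.73-fold, adjusted p = 8.47e-05), 1.51 ± 0.21 in MK2-/- (adjusted p = 7.55e-06) and 2.61 ± 0.22 in the double knockout (6.11-fold, adjusted p = 2.50e-08). Hk1 (NM_001146100), the hexokinase of most tissues, rose in MK2-/- BMDM by 0.79 ± 0.23 (adjusted p = 0.00763) and differed by 0.52 ± 0.25 in wt (adjusted p = 0.1) and 0.52 ± 0.25 in the double knockout (adjusted p = 0.0923) without being called. Another probe of Hk1 was called in all 3 genotypes, with 1.1, 1.03 and 1.23.

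The upper steps convert glucose 6-phosphate to triose phosphates, and the 3 phosphofructokinase genes among them went different ways. Pfkp (NM_019703), the platelet isoform, gave 10.95, 10.77, 10.87 and 11.31 on medium-treated and 13.13, 13.19 and 13.66 on LPS-treated wt arrays. Pfkp in MK2-/- BMDM was at 10.30, 10.93, 10.66 and 11.08 in medium and 13.05, 13.18, 13.27 and 13.71 after LPS. The MK2/3-/- arrays had Pfkp at 11.23, 10.70 and 11.10 in medium and 13.89, 14.01, 13.54 and 13.89 after LPS. LPS lay above medium on every array, with rises of 2.35 ± 0.22 in wt (5.1-fold, adjusted p = 9.88e-08), 2.56 ± 0.20 in MK2-/- (adjusted p = 6.05e-09) and 2.82 ± 0.22 in the double knockout (adjusted p = 5.27e-09). Pfkm (NM_021514), the muscle isoform, went down from 10.42, 10.09, 10.53 and 10.57 in medium to 9.40, 8.67 and 8.62 after LPS in wt BMDM. The Pfkm signals in MK2-/- BMDM were 10.79, 10.36, 10.87 and 10.29 in medium and 8.50, 8.70, 8.36 and 7.68 after LPS. In MK2/3-/- BMDM, Pfkm stood at 10.20, 9.69 and 10.25 in medium and 7.50, 7.71, 7.93 and 7.86 after LPS. Here LPS lay below medium on every array, with differences of -1.51 ± 0.25 in wt (adjusted p = 8.02e-05), -2.27 ± 0.23 in MK2-/- (adjusted p = 1.47e-07) and -2.30 ± 0.25 in the double knockout (adjusted p = 3.39e-07), so that Pfkm fell 2.84-fold, 4.81-fold and 4.92-fold.

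Pfkl (NM_008826), the liver isoform, rose in MK2-/- (1.54 ± 0.43, adjusted p = 0.00665) and, by 1.32 ± 0.47, in MK2/3-/- BMDM (adjusted p = 0.0257) and gave 1.17 ± 0.47 in wt (adjusted p = 0.0532). The call in MK2/3-/- was lost without replicate 1 or 2 of LPS-treated MK2/3-/- BMDM or replicate 3 of medium-treated MK2/3-/- BMDM (1.07 to 1.25, adjusted p = 0.0555 to 0.107). Gpi1 (NM_008155), whose product interconverts glucose 6-phosphate and fructose 6-phosphate, was called lower in every genotype, with differences of -0.92 ± 0.23, -1.06 ± 0.22 and -1.41 ± 0.23 in wt, MK2-/- and MK2/3-/- BMDM (adjusted p = 0.00388, 4.55e-04 and 5.31e-05). Under 75th percentile scaling these became -0.09, -0.30 and -0.50 and none was called. Aldoa (NM_001177307), the main aldolase outside liver and brain, was lower in MK2-/- (-0.66 ± 0.23, adjusted p = 0.0244) and MK2/3-/- BMDM (-0.64 ± 0.25, adjusted p = 0.0394), but 75th percentile scaling turned both to 0.06 and 0.29. The first of these calls was lost without replicate 2 or 4 of LPS-treated MK2-/- BMDM or replicate 2 or 3 of medium-treated MK2-/- BMDM (-0.63 to -0.56, adjusted p = 0.0551 to 0.0793) and the second without replicate 1, 2 or 4 of LPS-treated MK2/3-/- BMDM or replicate 1, 2 or 3 of medium-treated MK2/3-/- BMDM (-0.70 to -0.52, adjusted p = 0.0596 to 0.114). Aldoc (NM_009657), the aldolase of brain, was called in no genotype (-0.84 to -0.26 in the knockouts and -0.86 in wt).

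Fructose 2,6-bisphosphate, the strongest activator of phosphofructokinase, is made and broken down by 4 bifunctional enzymes, and of their genes Pfkfb3 rose while Pfkfb2 and Pfkfb4 fell in all 3 genotypes. Pfkfb3 (NM_001177753) encodes the isoform with the highest kinase activity. Pfkfb3 gave 10.34, 10.76, 10.54 and 12.13 on medium-treated wt arrays, the last being the array with raised LPS-inducible genes, and 16.12, 16.15 and 15.71 on LPS-treated ones. Pfkfb3 in MK2-/- BMDM went from 10.42, 9.63, 10.15 and 10.82 to 15.04, 16.10, 15.22 and 15.78. For MK2/3-/- BMDM the Pfkfb3 signals were 10.57, 10.62 and 10.82 in medium and 12.75, 13.89, 13.23 and 13.69 after LPS. All LPS arrays lay above all medium arrays, and the 4 LPS-treated MK2/3-/- arrays lay below every other LPS-treated array. The rise was 5.05 ± 0.38 in wt, 33.1-fold (adjusted p = 7.35e-09), 5.28 ± 0.36 in MK2-/-, 38.9-fold (adjusted p = 6.43e-10), and 2.72 ± 0.38 in MK2/3-/- BMDM, 6.58-fold (adjusted p = 8.25e-06). The rise of Pfkfb3 in wt was 5.45 without the 3 arrays that stood apart. A second Pfkfb3 probe gave 5.35, 5.30 and 2.78.

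Pfkfb2 and Pfkfb4, whose products belong to the same enzyme family, fell. Pfkfb4 (NM_173019) went from 12.19, 12.38, 12.21 and 12.30 in medium to 9.60, 9.46 and 9.15 after LPS in wt BMDM. The Pfkfb4 values in MK2-/- BMDM were 12.52, 11.97, 12.29 and 12.42 in medium and 9.17, 8.96, 9.06 and 8.90 after LPS. The MK2/3-/- arrays gave Pfkfb4 values of 12.39, 12.49 and 12.48 in medium and 8.53, 8.57, 9.29 and 9.42 after LPS. The groups were far apart in each genotype, at -2.87 ± 0.21 in wt (7.29-fold lower, adjusted p = 3.85e-09), -3.28 ± 0.19 in MK2-/- (adjusted p = 1.25e-10) and -3.50 ± 0.21 in the double knockout (adjusted p = 1.94e-10). Pfkfb2 (NM_001162415) was at 7.65, 7.55, 7.70 and 7.89 in medium-treated wt BMDM and at 4.96, 3.12 and 3.73 after LPS, where 1 of the 3 arrays was well above background. Pfkfb2 in MK2-/- BMDM gave 7.30, 7.09, 7.89 and 7.92 in medium and 4.15, 4.58, 3.75 and 4.65 after LPS, with 2 of the 4 LPS-treated arrays above background. The Pfkfb2 signals of MK2/3-/- BMDM were 7.43, 7.50 and 7.55 in medium and 3.55, 3.65, 5.07 and 3.40 after LPS, with 1 of the 4 LPS-treated arrays above background. All LPS arrays lay below all medium arrays, with differences of -3.76 ± 0.40, -3.26 ± 0.37 and -3.58 ± 0.40 in wt, MK2-/- and MK2/3-/- BMDM (adjusted p = 4.30e-07, 5.04e-07 and 4.25e-07). After normexp background correction they were -1.62, -1.56 and -1.52 and still called.

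Pfkfb1 (NM_008824), the liver and muscle isoform, was not called for LPS in any genotype. Pfkfb1 gave 8.48, 7.91, 8.42 and 8.60 in medium and 7.95, 7.98 and 8.09 after LPS in wt BMDM. The Pfkfb1 signals in MK2-/- BMDM were 7.78, 6.93, 8.36 and 7.35 in medium and 7.13, 7.01, 6.72 and 6.88 after LPS. On MK2/3-/- arrays Pfkfb1 was at 7.03, 7.19 and 7.61 in medium and 5.96, 6.42, 6.80 and 7.22 after LPS. The LPS-treated arrays of both knockouts lay below those of wt. The LPS differences of Pfkfb1 were -0.35 ± 0.30, -0.67 ± 0.28 and -0.68 ± 0.30 (adjusted p = 0.385, 0.0595 and 0.0728). Fbp1 (NM_019395) encodes fructose 1,6-bisphosphatase, which runs the phosphofructokinase step backwards in gluconeogenesis. Fbp1 was close to background, at 3.23, 5.41, 4.50 and 4.18 in medium-treated and 2.35, 5.31 and 4.76 in LPS-treated wt BMDM, with 2 of 4 and 2 of 3 arrays well above background. Fbp1 in MK2-/- BMDM was at 2.03, 4.91, 2.01 and 2.03 in medium, with 1 array above background, and at 3.45, 2.77, 2.27 and 2.03 after LPS, with none. All MK2/3-/- arrays were above background for Fbp1, at 5.80, 4.83 and 4.87 in medium and 5.33, 4.73, 6.71 and 5.19 after LPS. The LPS differences of Fbp1 were smaller than their errors (-0.19, -0.12 and 0.33, with standard errors of 0.75, 0.69 and 0.75).

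**Figure D2:**
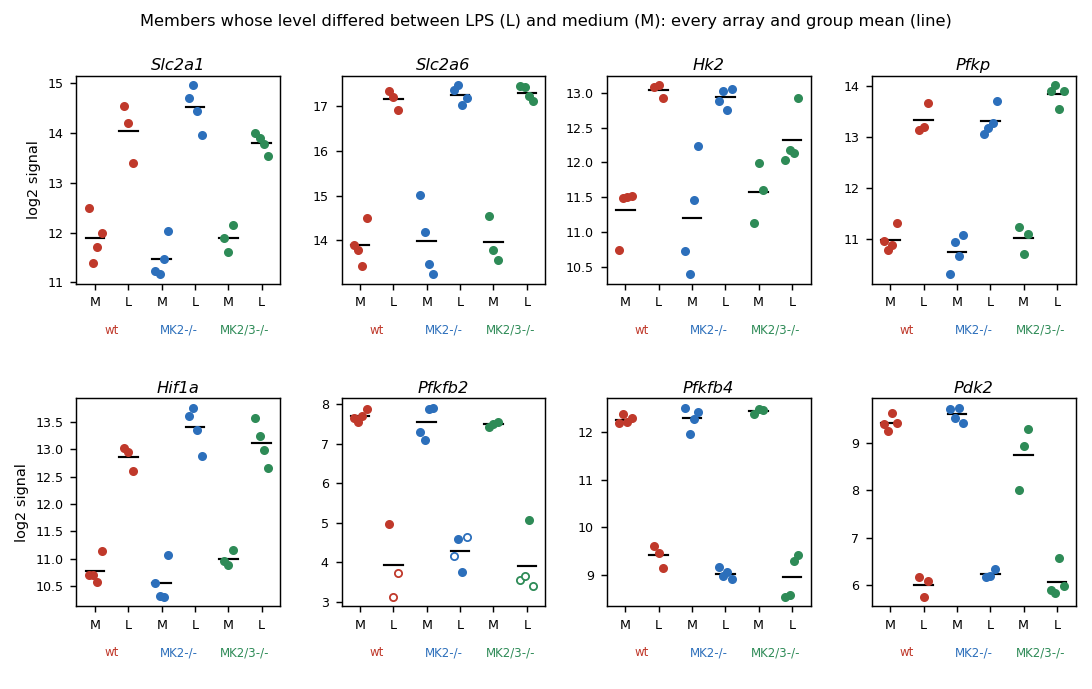
Log2 signal (vertical axis) on every array for 8 genes, in medium (M) and after LPS (L), in wt (red), MK2-/- (blue) and MK2/3-/- BMDM (green). Lines are group means and open points were not well above background. Slc2a1, Slc2a6, Pfkp and Hif1a are higher after LPS on every array of each genotype, Pfkfb2, Pfkfb4 and Pdk2 lower, and Hk2 is not called in MK2/3-/- BMDM.

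The 8 genes of the lower steps lead from triose phosphate to pyruvate. Their LPS differences lay between -0.96 and 0.36 in wt, between -0.90 and 1.16 in MK2-/- and between -0.84 and 0.55 in MK2/3-/- BMDM. Of the 8 genes 1, 2 and 2 were called, all lower. Over all genes 23.5%, 27.1% and 27.9% were called lower, and 42.1%, 44.6% and 48.2% in either direction. The difference from these shares was not tested. Pgam1 (NM_023418), phosphoglycerate mutase, was lower in wt (-0.96 ± 0.29, adjusted p = 0.0118) and MK2/3-/- BMDM (-0.84 ± 0.29, adjusted p = 0.0216) and gave -0.09 ± 0.27 in MK2-/- BMDM (adjusted p = 0.818). Under 75th percentile scaling it was -0.10 in wt, 0.08 in MK2/3-/- and 0.67 in MK2-/- BMDM, the last of them called (adjusted p = 0.0436). The call of Pgam1 in wt was lost without replicate 3 of LPS-treated wt BMDM (-0.84, adjusted p = 0.0578) and that in MK2/3-/- without replicate 4 of LPS-treated MK2/3-/- BMDM or replicate 1 or 3 of medium-treated MK2/3-/- BMDM (-0.82 to -0.67, adjusted p = 0.0579 to 0.0708). Eno3 (NM_001136062), the muscle enolase, was lower in MK2-/- BMDM alone by the call (-0.85 ± 0.21, adjusted p = 0.00281, with -0.33 in wt and -0.31 in MK2/3-/-), and Pkm (NM_001253883), pyruvate kinase, likewise (-0.90 ± 0.30, adjusted p = 0.0197, with -0.44 in wt, which 75th percentile scaling turned to 0.38, and -0.61 in MK2/3-/-). The call of Pkm was lost under that scaling (-0.14) and without replicate 2 or 4 of LPS-treated MK2-/- BMDM or replicate 3 of medium-treated MK2-/- BMDM (-0.81 to -0.72, adjusted p = 0.0588 to 0.078). Eno1 (NM_023119), the common enolase, was lower in MK2/3-/- BMDM (-0.83 ± 0.29, adjusted p = 0.0242), which turned to 0.11 under 75th percentile scaling and lost its call without replicate 2 or 4 of LPS-treated MK2/3-/- BMDM or replicate 1 or 2 of medium-treated MK2/3-/- BMDM (-0.85 to -0.74, adjusted p = 0.0502 to 0.0777).

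Gapdh (NM_008084), glyceraldehyde 3-phosphate dehydrogenase and a common reference gene, differed by 0.06 ± 0.26 in wt (95% interval -0.48 to 0.60), -0.16 ± 0.24 in MK2-/- and -0.21 ± 0.26 in MK2/3-/- BMDM. Pgk1 (NM_008828), phosphoglycerate kinase, differed by 0.36 ± 0.30, 0.42 ± 0.28 and 0.55 ± 0.30. In wt, 75th percentile scaling gave 0.92 for Gapdh (adjusted p = 0.00579) and 1.12 for Pgk1 (adjusted p = 0.00531), on a scale on which the median gene rose by 0.30. Tpi1 (NM_009415), triose phosphate isomerase, and Eno2 (NM_013509), the neuronal enolase, were called in no genotype, and Eno2 gave its largest difference in MK2-/- BMDM (1.16 ± 0.49, adjusted p = 0.063).

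Of the genes of lactate, Ldhb fell and the other 3 were not called in any genotype. Ldhb (NM_008492) encodes the H subunit of lactate dehydrogenase, which favours the conversion of lactate to pyruvate. Ldhb was at 9.80, 11.04, 11.98 and 11.06 on medium-treated and 8.59, 9.57 and 9.25 on LPS-treated wt arrays. Ldhb in MK2-/- BMDM went from 10.26, 10.93, 12.30 and 11.58 to 8.51, 8.53, 9.04 and 9.94. In MK2/3-/- BMDM the signals of Ldhb were 10.15, 11.11 and 11.38 in medium and 8.64, 8.44, 9.02 and 9.86 after LPS. The medium-treated arrays spread over more than 1 step in every genotype, yet LPS lay below medium throughout. The differences of Ldhb were -1.84 ± 0.53 in wt (3.57-fold lower, adjusted p = 0.00873), -2.26 ± 0.49 in MK2-/- (adjusted p = 7.66e-04) and -1.89 ± 0.53 in the double knockout (adjusted p = 0.00591). Ldha (NM_001136069), the M subunit, which favours the formation of lactate, gave 0.00 ± 0.30 in wt with a 95% interval of -0.63 to 0.64, 0.17 ± 0.28 in MK2-/- and 0.04 ± 0.30 in MK2/3-/- BMDM. In wt it was 0.79 under 75th percentile scaling (adjusted p = 0.022), and in MK2/3-/- BMDM another Ldha probe was called (0.88, adjusted p = 0.0215). Slc16a3 (NM_030696), the lactate exporter MCT4, differed by 0.17, 0.76 and 0.22 in wt, MK2-/- and MK2/3-/- BMDM. Slc16a1 (NM_009196), the transporter MCT1, gave 8.95, 8.73, 8.92 and 9.13 on the medium-treated wt arrays and 8.93, 9.45 and 9.44 on the LPS-treated ones. Slc16a1 in MK2-/- BMDM stood at 9.67, 9.61, 9.79 and 9.50 in medium and 9.82, 9.77, 9.75 and 10.00 after LPS. The MK2/3-/- arrays gave 10.08, 9.58 and 9.59 in medium and 10.27, 10.27, 9.52 and 9.97 after LPS for Slc16a1. Both knockouts lay above wt within each treatment, and the LPS differences of 0.34, 0.19 and 0.26 were not called.

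Pyruvate dehydrogenase kinases switch off the entry of pyruvate into the citrate cycle, and 2 of their 4 genes responded in opposite directions. Pdk3 (NM_145630) gave 9.81, 9.68, 9.18 and 9.60 on medium-treated and 10.91, 9.91 and 10.40 on LPS-treated wt arrays. Pdk3 in MK2-/- BMDM rose from 9.85, 9.23, 9.36 and 8.97 to 11.11, 11.05, 10.39 and 10.53. For Pdk3 in MK2/3-/- BMDM the values were 9.37, 9.48 and 9.04 in medium and 12.57, 12.04, 11.33 and 11.80 after LPS. LPS lay above medium in each genotype, and the 4 LPS-treated MK2/3-/- arrays lay above every other array. The rise of Pdk3 was 0.84 ± 0.29 in wt (1.79-fold, adjusted p = 0.0278), 1.42 ± 0.27 in MK2-/- (adjusted p = 2.48e-04) and 2.63 ± 0.29 in the double knockout (6.21-fold, adjusted p = 4.53e-07). The call in wt was lost without replicate 1 or 3 of LPS-treated wt BMDM or replicate 3 of medium-treated wt BMDM (0.59 to 0.84, adjusted p = 0.0663 to 0.15) and without the 3 arrays that stood apart (0.85, adjusted p = 0.0534). Pdk2 (NM_133667) went down, from 9.40, 9.26, 9.64 and 9.43 in medium to 6.16, 5.75 and 6.07 after LPS in wt BMDM. Pdk2 in MK2-/- BMDM gave 9.72, 9.53, 9.74 and 9.41 in medium and 6.16, 6.18 and 6.33 after LPS, where the marked spot of LPS-treated replicate 3 left it out. The Pdk2 signals of MK2/3-/- BMDM were 8.01, 8.94 and 9.30 in medium and 5.89, 5.82, 6.57 and 5.97 after LPS. LPS and medium were separate in each genotype, by -3.44 ± 0.25 in wt (10.8-fold lower, adjusted p = 6.78e-09), -3.38 ± 0.25 in MK2-/- (adjusted p = 3.47e-09) and -2.69 ± 0.25 in the double knockout (adjusted p = 6.50e-08). Pdk1, Pdk4, Pdha1 (the catalytic alpha subunit of the dehydrogenase) and Pdp1 (the phosphatase that reverses the kinases) were not called in any genotype, with differences of -0.50 to -0.03 in wt. Another probe of Pdp1 was called lower in wt (-0.92, adjusted p = 0.0292), where the chosen one gave -0.47. Values of further probes are adjusted over all probes tested.

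Hif1a (NM_010431) encodes the regulated alpha subunit of HIF-1, and Egln1 and Egln3 encode prolyl hydroxylases that mark it for destruction. Hif1a rose and Egln3 fell in every genotype. Hif1a was at 10.70, 10.70, 10.57 and 11.13 on medium-treated and 13.02, 12.95 and 12.60 on LPS-treated wt arrays. The Hif1a signals in MK2-/- BMDM were 10.55, 10.32, 10.30 and 11.06 in medium and 13.61, 13.76, 13.36 and 12.87 after LPS. On the MK2/3-/- arrays Hif1a gave 10.96, 10.88 and 11.16 in medium and 13.58, 13.24, 12.99 and 12.66 after LPS. LPS lay above medium on every array, by 2.08 ± 0.25 in wt (4.23-fold, adjusted p = 1.79e-06), 2.84 ± 0.23 in MK2-/- (adjusted p = 6.58e-09) and 2.12 ± 0.25 in the double knockout (adjusted p = 7.88e-07). Egln1 (NM_053207), the prolyl hydroxylase PHD2, gave 7.88, 7.87, 7.65 and 7.75 in medium and 7.11, 6.82 and 6.30 after LPS in wt BMDM. Egln1 in MK2-/- BMDM was at 7.12, 6.92, 7.44 and 7.44 in medium and 6.94, 7.12, 6.38 and 5.85 after LPS. The MK2/3-/- arrays had Egln1 at 6.74, 7.13 and 7.09 in medium and 5.20, 4.96, 6.19 and 5.41 after LPS. The groups overlapped in MK2-/- BMDM and were separate in wt and MK2/3-/- BMDM. The difference of Egln1 was -1.05 ± 0.30 in wt (adjusted p = 0.00822), -1.54 ± 0.30 in MK2/3-/- (adjusted p = 2.55e-04) and -0.65 ± 0.28 in MK2-/- BMDM, which was not called (adjusted p = 0.063), and the call in wt was lost without replicate 3 of LPS-treated wt BMDM (-0.83, adjusted p = 0.0609).

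Egln3 (NM_028133), the hydroxylase PHD3, is itself a known target of HIF-1. Egln3 gave 8.20, 7.15, 7.96 and 7.60 in medium-treated and 7.33, 3.55 and 4.85 in LPS-treated wt BMDM, the latter with 2 of 3 arrays well above background. Egln3 in MK2-/- BMDM was at 7.34, 6.14, 8.14 and 7.81 in medium and 5.49, 5.90, 4.50 and 2.03 after LPS, with 3 of 4 LPS arrays above background. The Egln3 signals of MK2/3-/- BMDM were 7.06, 6.78 and 7.42 in medium and 2.69, 3.04, 4.03 and 5.36 after LPS, with 1 of 4 LPS arrays above background. The LPS-treated wt arrays were widely spread and 1 of them overlapped the medium-treated ones. Egln3 differed by -2.48 ± 0.87 in wt (adjusted p = 0.0276), -2.88 ± 0.81 in MK2-/- (adjusted p = 0.00636) and -3.31 ± 0.87 in the double knockout (adjusted p = 0.00376). The call in wt was lost without replicate 2 or 3 of LPS-treated wt BMDM or replicate 1 or 3 of medium-treated wt BMDM (-2.41 to -1.64, adjusted p = 0.0549 to 0.187) and without the 3 arrays that stood apart (-2.53, adjusted p = 0.0564). With normexp background correction Egln3 differed by -1.20, -1.26 and -1.25 in wt, MK2-/- and MK2/3-/- BMDM. Another probe of Egln3 gave -2.31 in wt (adjusted p = 0.0088). With each gene represented by its probe of highest induction in wt BMDM, the calls of Egln3 in MK2-/- and MK2/3-/- BMDM were lost.

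The genotypes were then compared with each other under LPS, to ask which of the 38 genes differ without MK2 or without both kinases. Slc2a3 and Pfkfb1 were lower in both knockouts, and Pfkfb3 was lower and Pdk3 and Hk3 higher in MK2/3-/- BMDM than in either of the others. Between MK2-/- and wt BMDM 2 genes were called, both lower (5.26%), against 11.6% of all genes (4.52% higher and 7.06% lower). Between MK2/3-/- and wt BMDM 10 genes were called (26.3%), 4 higher and 6 lower, against 23.6% of all genes (9.61% higher and 14% lower). Between MK2/3-/- and MK2-/- BMDM 5 were called (13.2%), 3 higher and 2 lower, against 13.5% of all genes (7.74% higher and 5.8% lower). The 2 comparisons with wt share the 3 LPS-treated wt arrays. The share of members called lay below that of all genes for MK2-/- against wt and near it for the other two. Without the 3 arrays that stood apart, the counts were 0 higher and 2 lower, 4 and 6, and 2 and 3. Under 75th percentile scaling they were 0 and 4, 6 and 10, and 3 and 1. The shares of all genes called in these settings are not given here.

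Slc2a3 differed from wt in LPS-treated MK2-/- BMDM by -2.13 ± 0.37 (adjusted p = 0.00298) and in MK2/3-/- BMDM by -2.92 ± 0.37 (adjusted p = 7.23e-05), and no knockout array overlapped wt. The second of these is no exact size, since 2 of the 4 MK2/3-/- arrays were well above background. After normexp background correction both were called but smaller, at -1.03 and -1.21. Between the knockouts the difference of Slc2a3 was -0.79 ± 0.35 and not called (adjusted p = 0.138). Pfkfb1 was also lower in both, with -1.07 ± 0.30 (adjusted p = 0.0304) and -1.40 ± 0.30 (adjusted p = 0.00299). The first of these calls was lost without replicate 1, 2 or 3 of LPS-treated wt BMDM or replicate 2, 3 or 4 of LPS-treated MK2-/- BMDM (-1.1 to -1.0, adjusted p = 0.0557 to 0.0869). Both were called in MK2-/- BMDM without the 3 arrays that stood apart, Slc2a3 at -1.91 and Pfkfb1 at -1.0.

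Pfkfb3 was lower in LPS-treated MK2/3-/- BMDM than in wt, at -2.60 ± 0.38 (6.08-fold, adjusted p = 1.95e-04), and lower than in MK2-/- BMDM, at -2.15 ± 0.36 (4.43-fold, adjusted p = 5.82e-04). MK2-/- and wt BMDM differed in Pfkfb3 by -0.46 ± 0.38 (adjusted p = 0.449). The second probe of Pfkfb3 gave -3.30 and -2.96 for the first 2 of these differences. Egln1 followed the same order, at -1.30 ± 0.30 from wt (adjusted p = 0.00462) and -1.13 ± 0.28 from MK2-/- (adjusted p = 0.0108), but neither was called under 75th percentile scaling (-0.56 and -0.86). In medium all arrays of both knockouts already lay below those of wt for Egln1, at -0.56 ± 0.28 and -0.80 ± 0.30, which were not called (adjusted p = 0.208 and 0.168). Pfkm differed by -1.15 ± 0.25 from wt in MK2/3-/- BMDM (adjusted p = 0.00329), and Eno1 by -0.94 ± 0.29 (adjusted p = 0.0261), a call lost without replicate 1 of LPS-treated wt BMDM or replicate 2 or 4 of LPS-treated MK2/3-/- BMDM (-0.86 to -0.59, adjusted p = 0.0567 to 0.179).

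Among the genes that were higher, Pdk3 exceeded wt by 1.53 ± 0.29 in LPS-treated MK2/3-/- BMDM (2.88-fold, adjusted p = 0.0014) and MK2-/- by 1.16 ± 0.27 (adjusted p = 0.00838). Both calls of Pdk3 were lost in fits on only the groups compared and in the methods' t-test with Benjamini-Hochberg adjustment. Pdp1 (NM_001098230), the phosphatase that acts against the kinases, was 1.18 ± 0.32 higher than in wt (adjusted p = 0.012), and its call was lost without replicate 1 of LPS-treated wt BMDM (0.87, adjusted p = 0.0859). Another probe of Pdp1 gave 1.47. The call of Pdp1 was also lost when each gene was represented by its probe of highest induction in wt BMDM. Hk3 was higher than in wt by 1.26 ± 0.22 (adjusted p = 8.71e-04) and than in MK2-/- by 0.70 ± 0.21 (adjusted p = 0.0326). The latter call was lost without replicate 1, 2 or 3 of LPS-treated MK2-/- BMDM or replicate 1, 2 or 3 of LPS-treated MK2/3-/- BMDM (0.59 to 0.72, adjusted p = 0.0503 to 0.0842) and without the 3 arrays that stood apart (adjusted p = 0.117). Both calls of Hk3 were lost in the log2 value table deposited by the authors. Slc16a1 exceeded wt in MK2/3-/- BMDM by 0.73 ± 0.20 (adjusted p = 0.0118), a call lost without replicate 1 of LPS-treated wt BMDM (0.56, adjusted p = 0.08). Fbp1 was at least 3.96-fold above MK2-/- BMDM in LPS-treated MK2/3-/- BMDM (adjusted p = 0.0104), a lower bound under quantile normalisation because no LPS-treated MK2-/- array was well above background. After normexp background correction the fitted difference of Fbp1 was 0.62 (adjusted p = 0.0287), below that bound. Between LPS-treated MK2-/- and wt BMDM Fbp1 was not called (adjusted p = 0.185). No size is given for this difference, since only 2 of the 3 wt arrays were well above background. The dendritic markers had their highest mean signal in LPS-treated MK2/3-/- BMDM. Of the neutrophil markers given above single genes differed with genotype, as did the mast cell marker Cpa3 and, without a call, the stromal median. The part of all these markers was not tested. Genes without a call in these comparisons included Slc2a1 (0.47 ± 0.31 and -0.24 ± 0.31 from wt), Slc2a6 (0.11 ± 0.34 and 0.15 ± 0.34) and Hif1a (0.55 ± 0.25 and 0.26 ± 0.25), which does not show that their levels were equal. Pdk4 (NM_013743), a kinase gene induced by fasting in many tissues, gave larger differences without a call, -1.70 ± 0.73 and -1.75 ± 0.73 (adjusted p = 0.13 and 0.0906).

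**Figure D3:**
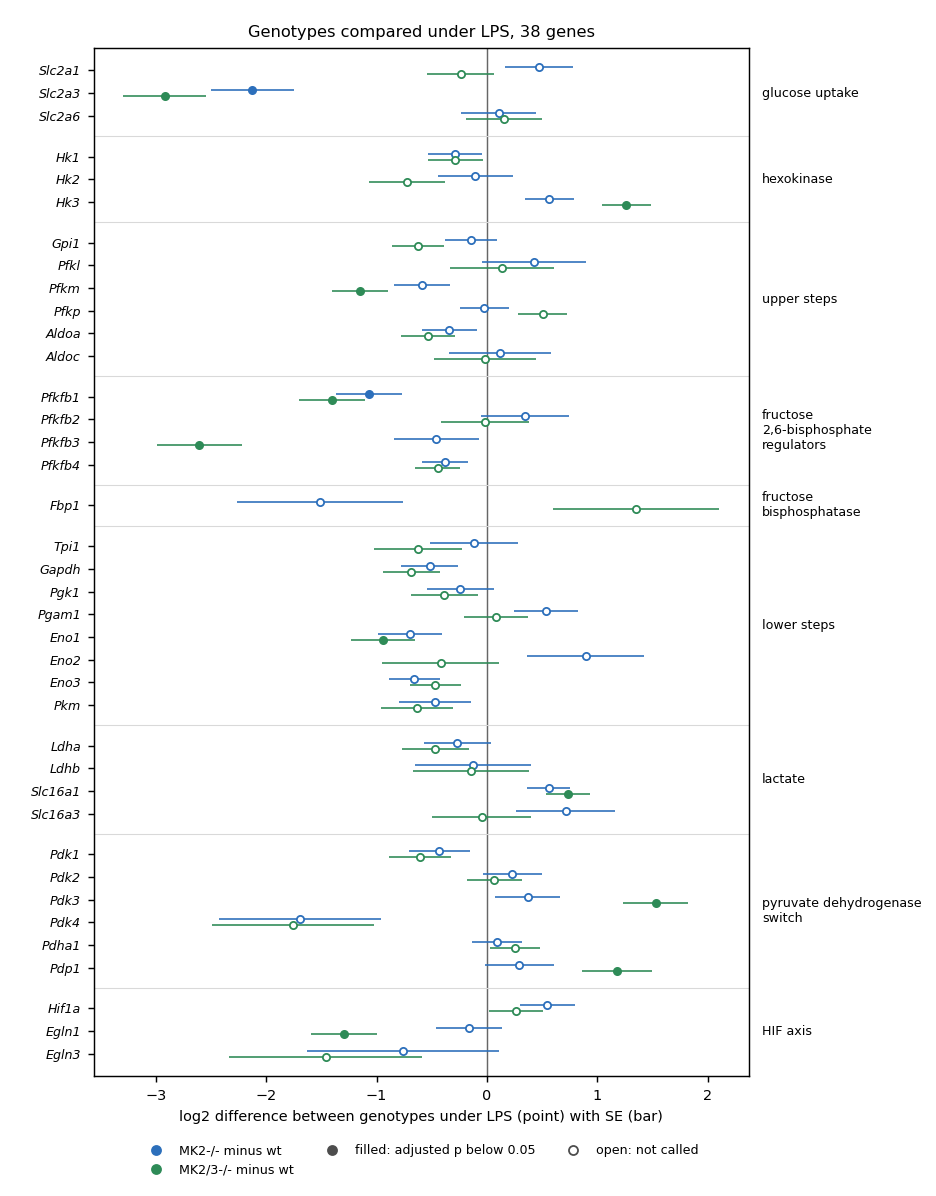
Log2 difference from LPS-treated wt BMDM (horizontal axis, points) with its standard error (bars) for the 38 genes in LPS-treated MK2-/- (blue) and MK2/3-/- BMDM (green). Filled points were called at an adjusted p below 0.05. Slc2a3 and Pfkfb1 are lower in both knockouts, and Pfkfb3, Pfkm, Egln1 and Eno1 lower and Hk3, Pdk3, Pdp1 and Slc16a1 higher in MK2/3-/- BMDM. No LPS-treated MK2-/- array was well above background for Fbp1, so that its blue point is no measured size.

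In medium, Slc16a1 was the only one of the 38 genes called between genotypes, higher than in wt in MK2-/- BMDM by 0.71 ± 0.18 (adjusted p = 0.0239) and in MK2/3-/- BMDM by 0.82 ± 0.20 (adjusted p = 0.041), so that 1 of 38 genes was called in each comparison (2.63%), against 8.82% and 2.02% of all genes. Between MK2/3-/- and MK2-/- BMDM limma called 0 of 38 genes, with 3 at an unadjusted p below 0.05, against 2.82% of all genes. The call of Slc16a1 in MK2-/- was lost without replicate 1 or 2 of medium-treated wt BMDM or replicate 1, 2 or 3 of medium-treated MK2-/- BMDM (0.64 to 0.72, adjusted p = 0.0514 to 0.0596), and that in MK2/3-/- without replicate 1, 2, 3 or 4 of medium-treated wt BMDM or replicate 1 or 2 of LPS-treated MK2-/- BMDM or replicate 1 of medium-treated MK2-/- BMDM or replicate 1, 2 or 3 of medium-treated MK2/3-/- BMDM (0.65 to 0.90, adjusted p = 0.0517 to 0.242). Without the 3 arrays that stood apart, limma called no gene in these comparisons (Slc16a1 0.73, adjusted p = 0.0787, and 0.88, adjusted p = 0.0773). Leaving out only the 2 arrays with low Y-linked signal lost the call of Slc16a1 in MK2-/- (0.66, adjusted p = 0.0623) and gave 1 lower gene between MK2-/- and wt, Pfkfb1 (-1.0, adjusted p = 0.0365), which otherwise differed by -0.75 ± 0.28 (adjusted p = 0.0985) and between MK2/3-/- and wt by -1.08 ± 0.30 (adjusted p = 0.0704). Slc2a3, which differed under LPS, gave -0.13 ± 0.35 and -0.27 ± 0.37 in medium, and Pfkfb3 gave -0.69 ± 0.36 and -0.27 ± 0.38.

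**Figure D4:**
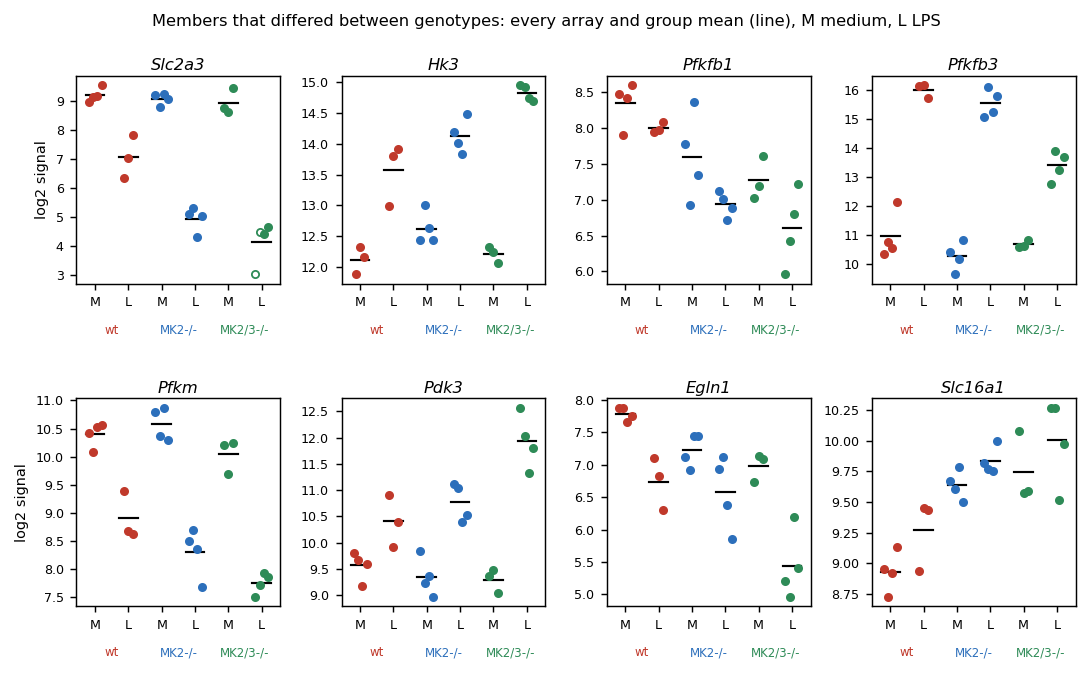
Log2 signal (vertical axis) on every array for 8 genes called between genotypes, in medium (M) and after LPS (L), in wt (red), MK2-/- (blue) and MK2/3-/- BMDM (green). Lines are group means and open points were not well above background. Slc2a3 and Pfkfb3 overlap between genotypes in medium and are lower after LPS in MK2/3-/- BMDM, while Slc16a1 is above wt in both knockouts in medium and after LPS.

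Whether the response to LPS itself differed between genotypes was tested as the interaction of genotype and treatment, in which an additive effect of the slide cancels. Between MK2-/- and wt BMDM limma called 0 of 38 genes, with 5 at an unadjusted p below 0.05, and 0% of all genes. Between MK2/3-/- and wt BMDM 1 gene was called (2.63%), against 0.679% of all genes. This was Slc2a3, whose response differed by -2.65 ± 0.53 in MK2/3-/- BMDM (adjusted p = 0.0343). Its call was lost without replicate 3 of LPS-treated wt BMDM or replicate 1, 2 or 3 of medium-treated wt BMDM or replicate 1, 2 or 3 of medium-treated MK2/3-/- BMDM (-2.80 to -2.26, adjusted p = 0.061 to 0.0893), without the 3 arrays that stood apart (-2.76, adjusted p = 0.0706), under 75th percentile scaling (-1.86, adjusted p = 0.109), after normexp background correction (-0.98, adjusted p = 0.109) and in a fit on only the groups compared (adjusted p = 0.084). Of the LPS-treated MK2/3-/- arrays behind it, 2 of 4 were well above background. Near the threshold stood Pfkfb3, with a response that differed by -2.33 ± 0.54 (adjusted p = 0.0513), and Pdk3, with 1.80 ± 0.42 (adjusted p = 0.0506). Without the 3 arrays that stood apart, Pfkfb3 was called in place of Slc2a3 (-2.73, adjusted p = 0.0479). Between MK2/3-/- and MK2-/- BMDM limma called 0 of 38 genes, with 7 at an unadjusted p below 0.05, against 0.067% of all genes. Pfkfb3 gave -2.56 ± 0.52 there (adjusted p = 0.0953) and was called without the 3 arrays that stood apart (-2.63, adjusted p = 0.044). For a call it sufficed to leave out replicate 4 of medium-treated wt BMDM (-2.56, adjusted p = 0.033). That array belongs to none of the groups compared here. The normalisation was not redone without it, so that leaving it out changed the shared estimate of the spread and not the difference.

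Neighbouring routes were counted from lists that hold none of the 38 genes. Over all genes, 42.1% were called for LPS in wt, 44.6% in MK2-/- and 48.2% in MK2/3-/- BMDM. Of 7 genes of the pentose phosphate pathway, which branches off at glucose 6-phosphate, 6 were lower and 1 higher after LPS in wt BMDM, and the same counts held in both knockouts. G6pdx, its entry enzyme, differed by -1.06 ± 0.20 in wt (adjusted p = 2.70e-04), Taldo1 by -0.98 ± 0.26 and Rpe by 1.09 ± 0.35 (adjusted p = 0.0172). Of 19 genes of the citrate cycle, 12 were lower, 1 higher and 6 not called in wt, and 15 were lower and none higher in MK2-/- and in MK2/3-/- BMDM. The largest differences in wt were those of Idh1 (-2.46 ± 0.29, adjusted p = 1.37e-06), Mdh1 (-1.41 ± 0.33) and Idh3g (-1.17 ± 0.25). Idh1 and Mdh1 encode the cytosolic isocitrate and malate dehydrogenases, which lie outside the mitochondrial cycle, although the list holds them. Of 8 genes of the pyruvate dehydrogenase complex and the mitochondrial pyruvate carrier, 4 were lower and 1 higher in wt, 2 and 1 in MK2-/-, and 6 and 0 in MK2/3-/- BMDM, with Dld at 0.85 ± 0.16 and Mpc2 at -0.80 ± 0.20 in wt. Another of those lower in wt, Pdpr, was not well above background on any LPS-treated wt array. Of 9 glycogen genes 3 were lower and 1 higher in wt, with Ppp1r3b, a glycogen-targeting subunit of protein phosphatase, at 2.31 ± 0.27 and Pygl, glycogen phosphorylase, at -1.91 ± 0.29. Of 7 other hexose transporters, Slc2a8 was lower (-2.41 ± 0.47) and Slc2a4 higher (1.38 ± 0.19) in wt and 5 were not called. Of 13 further targets and regulators of HIF, 4 were higher and 1 lower in wt, with Ndrg1 at 2.11 ± 0.35 and Adm at 1.85 ± 0.63 among the higher ones and Vhl, which targets HIF for destruction, at -1.12 ± 0.32. These counts rest on the scaling. Under 75th percentile scaling 1 gene of the pentose phosphate pathway was lower and 1 higher in wt (median of the list -0.11, from -0.80), and 2 genes of the citrate cycle were lower and 2 higher (median -0.07, from -0.68), and in MK2-/- and MK2/3-/- BMDM 3 and 2 genes of the pentose phosphate pathway and 5 and 7 of the citrate cycle were lower, while the counts of the glycogen genes in wt stayed at 3 and 1. Without the 3 arrays that stood apart, 1 of the HIF list was higher in wt in place of 4, and the counts for the citrate cycle stayed at 12 and 1. Between LPS-treated MK2/3-/- and wt BMDM, 4 of 19 genes of the citrate cycle, 2 of 7 of the pentose phosphate pathway, 2 of 8 of the pyruvate dehydrogenase complex and carrier, 2 of 9 of glycogen and 3 of 13 of HIF were called, all lower, and of 7 other hexose transporters 1 was higher and 1 lower. Over all genes 23.6% were called, 9.61% higher and 14% lower. The shares called in either direction were near the 23.6%. In the lists where all calls were lower, the share called lower lay above 14%, a difference that was not tested. Car9, a HIF target, differed by -1.94 ± 0.33 (adjusted p = 5.60e-04).

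**Figure D5:**
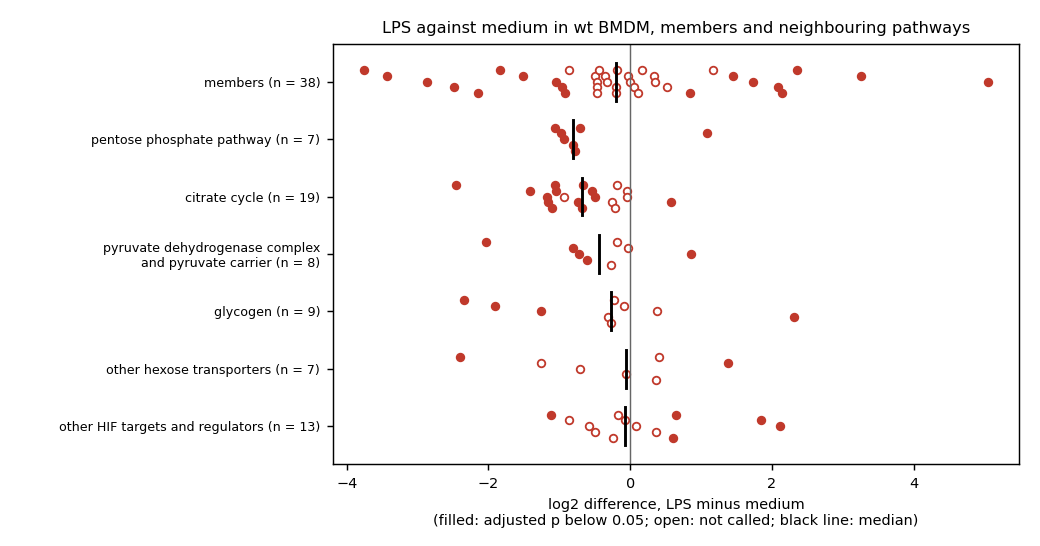
Log2 difference between LPS and medium in wt BMDM (horizontal axis) for the 38 genes and 6 lists of neighbouring routes, 1 point for each gene. Filled points were called at an adjusted p below 0.05 and the black line is the median of the list. The 38 genes spread widely to both sides of 0, whereas most genes of the pentose phosphate pathway and the citrate cycle lie to the left (medians -0.80 and -0.68), a shift that was smaller under 75th percentile scaling (medians -0.11 and -0.07).

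For 12 of the 38 genes the array held other probes, 20 in all. In wt BMDM 6 of these 20 had the opposite sign to the chosen probe for the LPS difference, all of them of genes that were not called. Of the other probes whose chosen probe was called, 7 of 7 were called in wt, 7 of 8 in MK2-/- and 6 of 7 in MK2/3-/- BMDM for LPS, and under LPS 2 of 3 for MK2/3-/- against wt and 1 of 1 against MK2-/-, all with the same sign. Beside Hk1, Ldha and Pdp1, given above, other probes called where the chosen one was not were found between LPS-treated MK2/3-/- and wt BMDM, for Gapdh (-1.03, adjusted p = 0.0248, chosen probe -0.69) and Gpi1 (-0.69 and -0.76, chosen probe -0.62), and between MK2/3-/- and MK2-/- BMDM for Pdp1 (0.96, adjusted p = 0.0417, chosen probe 0.88). Between arrays of a group the members had a median SD of 0.245 to 0.463, compared with 0.248 to 0.445 over all genes.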

How the data were processed

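Single-colour Agilent mouse arrays were scanned and extracted with Feature Extraction 11.0.1.1. The authors deposited processed signal intensities per array and a log2 value table that was, by their methods, quantile normalised and then baseline-transformed to the median over samples. Here, log2 processed signal intensities of the 22 deposited arrays were quantile normalised. Of 62976 spots 3671 controls were left out, spots marked as outliers were set to missing and spots of a probe were averaged. A probe with a RefSeq or GenBank accession was kept if 3 or more arrays had it well above background (28103 of 55681), and each gene was represented by its probe of highest mean signal. Probes were named through RefSeq accessions in a RefSeq gene table (27509 of 29150 RefSeq probes matched). Group means were fitted with limma 3.58.1 in R 4.3.3 on all arrays, with two-sided tests and Benjamini-Hochberg adjustment over 22384 genes, of which 18375 have a symbol and the others are single accessions. SE is the moderated standard error of the fit. The procedure was tested on simulated data. A probe below background on all arrays of a group has a fold given as a bound, the mean of the bright group against the floor of the dim one. Values for every array are given for genes called in wt with a change of at least 2-fold and for up to 5 genes with the largest called difference in each comparison of genotypes, and the rest by range and count. The genes and lists were chosen with earlier results of these data known. Alternatives comprised 75th percentile scaling, normexp background correction (offset 50, on median spot signals), the deposited log2 value table, filters, probe choice, samples in the fit, array weights, the methods' t-test, replicate blocks and leaving out arrays. The number of arrays limits the precision. Replicates are described as independent experiments, but no label ties an array to an animal, so that p-values measure the spread between these arrays.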

Additional observations from a re-analysis of the deposited data

Results flagged for a closer look

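Of 150 groups of 4 arrays of the 38 genes, 11 held 1 array set apart from the other 3, measured as its distance from the next array divided by the spread of the 4. Chance sets apart an array in about 1 in 20 groups. On replicate 4 of LPS-treated MK2-/- BMDM this held for Ldha (gap 0.931 of the range, 15.99 against 16.92 to 16.99), Tpi1 (0.92, 13.31 against 14.73 to 14.85) and Pdk1 (0.848, 8.58 against 9.62 to 9.81), all as the lowest array. On replicate 3 of medium-treated MK2-/- BMDM, an array without Y-linked signal, Hk1 (0.872) and Gapdh (0.847) were highest, and on replicate 2 Fbp1 (0.992) was highest and alone above background in its group. On replicate 1 of medium-treated wt BMDM Hk2 was lowest (0.965) and Pgam1 highest (0.876). In LPS-treated MK2/3-/- BMDM Slc2a3 was lowest on replicate 1 (0.842), Pfkfb2 highest on replicate 3 (0.851) and Hk2 highest on replicate 4 (0.843).

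The response of Slc2a3 to LPS differed between MK2/3-/- and wt BMDM by -2.65 in the interaction test. The LPS-treated arrays of MK2/3-/- BMDM were at or near background for this gene, so that its fall there has a floor.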

How the results depend on the processing

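Of 79 called differences of the 38 genes, 42 kept their direction and their call in every setting that gave a value, which was all 38 alternative settings (22 of them leaving out 1 array each), or 37 for Slc2a3 and Pfkfb2, absent with probes above background on all arrays, and 4 changed sign in a setting. The causes of the changes below were not tested. Counts of called genes below stand without the shares of all genes called in the same setting.

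Under 75th percentile scaling the number of called genes was 4 for MK2-/- against wt under LPS, 16 for MK2/3-/- against wt under LPS, 3 for these in medium, and 0 for the response of MK2/3-/- against wt. After normexp it was 1 for MK2/3-/- against MK2-/- in medium and 2 for the response of MK2/3-/- against wt (Pfkfb3 and Pdk3, with the call of Slc2a3 lost). The deposited value table gave 0 for MK2/3-/- against wt in medium. With probes above background on all arrays it was 1 for MK2-/- against wt under LPS, 2 for the response of MK2/3-/- against wt and 1 for that against MK2-/-. Fits on only the groups compared, which have fewer arrays, called 5 genes for MK2/3-/- against wt and 2 against MK2-/- under LPS, and 0 for the response of MK2/3-/- against wt. Under LPS these fits lost the calls of Eno1, Slc16a1, Pdk3, Pdp1 and Egln1 against wt, and of Hk3, Pdk3 and Egln1 against MK2-/-. Array weights gave 9 for MK2-/- against wt under LPS, 2 for each comparison in medium, and 4 and 1 for the responses of MK2/3-/- against wt and MK2-/-. The methods' t-test gave, without adjustment, 6 for MK2-/- against wt and 9 for MK2/3-/- against MK2-/- under LPS, and 4, 5 and 3 in medium. After Benjamini-Hochberg adjustment it gave 1 for MK2-/- against wt, 0 for MK2/3-/- against wt and 1 for MK2/3-/- against MK2-/- under LPS, and 0 for MK2/3-/- against wt in medium. A further minimum of a 2-fold change left 0 genes for either knockout against wt in medium. Leaving out the arrays of low Y-linked signal gave 2 for MK2/3-/- against wt in medium, and leaving out the 3 arrays that stood apart gave 0 for either knockout against wt in medium and 1 for the response of MK2/3-/- against MK2-/-.

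Single genes changed sign. Under 75th percentile scaling Pkm in wt was 0.38, Aldoa 0.060 in MK2-/- and 0.29 in MK2/3-/-, Pgam1 0.67 in MK2-/- and 0.080 in MK2/3-/-, and Eno1 0.11 in MK2/3-/- BMDM after LPS. Pgam1 in MK2-/- BMDM was 0.049 in the value table and 0.063 with array weights, and lay between -0.28 and 0.23 in the fits without 1 array, turning positive without replicate 4 of LPS-treated MK2-/- BMDM. Gapdh in wt was -0.045 as the mean over probes and -0.10 with array weights, and lay between -0.13 and 0.19 in the fits without 1 array, turning negative without replicate 1 of LPS-treated or replicate 2 of medium-treated wt BMDM. Ldha in wt was -0.26 with array weights, -0.0077 with a replicate block by number and -0.0080 by letter, -0.085 without the 3 arrays, and lay between -0.37 and 0.33 in the fits without 1 array, turning negative without replicate 1 of LPS-treated or replicate 2, 3 or 4 of medium-treated wt BMDM.

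Leaving out 1 array at a time gave 15 to 19 called genes for LPS in wt, 19 to 23 in MK2-/- and 17 to 22 in MK2/3-/- BMDM, 1 to 4 for MK2-/- against wt, 7 to 15 for MK2/3-/- against wt and 4 to 10 for MK2/3-/- against MK2-/- under LPS, 0 to 1, 0 to 2 and 0 to 1 for these in medium, and 0, 0 to 3 and 0 to 1 for the responses. With the replicate number as a block (correlation 0.117), or the letter of the array names (0.144), 3 genes were called for the response of MK2/3-/- against wt (Slc2a3, Pfkfb3 and Pdk3), and no other count moved by more than 1.5 times. Deviations of same-numbered arrays correlated above 0.1 in 7 of 10 pairs (lowest -0.0852) and those of other numbers in 6 of 30. As this did not hold in every same-numbered pair, the numbers were not taken to pair the arrays. Medium and LPS arrays of the same letter had the same age label in every pair, and the 2 arrays without Y-linked signal share number and letter. Such arrays may therefore come from the same animal, a pairing that the main fit leaves out.

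The number of arrays and signals near background limit Fbp1, Pfkfb2, Egln3 and, in LPS-treated MK2/3-/- BMDM, Slc2a3. An overall shift of mRNA between treatments is removed by quantile normalisation.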
